A study of Mus musculus with 18 samples.

Results

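Apolipoproteins are the proteins that liver and intestine load with lipid and release as lipoprotein particles. The 10 described here, Apoa1, Apoa2, Apoa4, Apoa5, Apob, Apoc1, Apoc2, Apoc3, Apoe and Apoh, were taken by symbol from a bulk RNA-seq table of 28442 genes, and all 10 were among the 11452 genes tested. The samples were 6 livers and 12 advanced tumors, from 17 male Alb-R26Met mice, with tumors 11 and 12 dissected from the same animal. All of these mice carried the same alleles, livers included: a Cre recombinase under the Alb promoter, which is active in hepatocytes, and a mouse-human chimeric Met transgene at the Rosa26 locus whose stop cassette Cre removes, so that wild-type MET is slightly raised in the liver. They were F1 animals of R26stopMet mice in C57BL/6JRj and Alb-Cre mice in another inbred strain, the livers came from animals without tumors, and no library without the transgene was compared. Liver donors were 52 to 71 weeks old, with a median of 56.5. Tumor-bearing mice were 49 to 72 weeks old, with a median of 65 over the 12 tumors. No treatment is named in the labels of either group.

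Apob is the scaffold of very low density lipoprotein (VLDL), the particle in which hepatocytes export triglyceride, and Apoa1 and Apoa2 form the scaffold of high density lipoprotein (HDL). The small Apoc proteins, Apoa5 and Apoe ride on these particles and set how fast their triglyceride is hydrolyzed by lipoprotein lipase and how fast the remnants are taken up by the liver. In adult mice hepatocytes are the main source of most of them, while Apoa4 is best known from the intestine and macrophages add to Apoe.

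Levels are in TPM, a share of the transcripts of a sample that is corrected for transcript length and can thus be compared between genes. The deposited values are read here as TPM rounded to whole numbers, although the study's data statement calls such a table raw counts, and comparisons of levels between genes rest on this reading. Of 50 genes with values named TPM in a supplement, 49 were equal to the table in every sample after rounding. The values add up to 835144 to 907513 per sample, and they do not keep the number of reads behind a value, so the depth of each value is unknown. One transcript, Siglece, took 17.9 to 29.5% of the total in livers and 21.5 to 82.9% in tumors, with the highest share in tumor 2. Since TPM add up to a fixed total, such a share leaves less for all other genes. For the tests, each sample was therefore scaled by a TMM-type factor, which gave the scaled values named below, and this factor was 0.190 in tumor 2 and 0.811 to 1.42 elsewhere. Tumor 2 also had the fewest genes above 0, 8718 beside 11508 to 13819 in the other samples. Why Siglece took so large a share there was not tested. The summed level of 15 hepatocyte markers was 53611 to 79088 TPM in livers. It was 15093 TPM in tumor 2 and 57237 to 118848 TPM in the other tumors. The sum was thus high in both groups, but single markers differed in direction. Alb alone was at 19995 to 32414 TPM in livers and 6050 to 53033 TPM in tumors. In limma 3 of the 15 were higher in tumors, with log2 differences of 1.07 for Trf, 1.17 for Ahsg and 0.61 for Ambp. Another 2 were lower, Tat at -1.62 and Ass1 at -1.83. Cps1, at -1.88 with an adjusted p of 0.103, did not pass. Since these are bulk samples, fewer cells of a type and less RNA per cell cannot be told apart. Sample names carry a tag, E19 (2 livers, 7 tumors) or E20 (4 livers, 5 tumors), whose meaning is not given in the sources used here.

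The genes lie in 2 clusters and 3 single places of the mouse genome (GRCm38.p6, RefSeq). On chromosome 9, Apoa1, Apoc3, Apoa4 and Apoa5 follow each other within 43292 bases, chr9:46228630-46271921, with gaps of 2580, 5207 and 25149 bases between them. On chromosome 7, Apoc2, Apoc4, Apoc1 and Apoe lie within 29732 bases, chr7:19671579-19701310, and only 142 bases separate Apoc2 from Apoc4. Apoa2 lies at chr1:171221564-171226379, Apob at chr12:7977629-8016839 and Apoh at chr11:108395297-108414396. Apoc2 also overlaps Apoc2l, an annotated gene that spans Apoc2 and Apoc4, so reads of these 3 may have been divided between them by the quantification, and the values of Apoc2 are uncertain to that extent. Apoc2l itself was at 2 to 5 TPM in livers and 0 to 10 TPM in tumors.

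The 140 bases before the annotated start of the 3 members that were higher in tumors, and of Apoa5, the neighbor of Apoa4 with values in the other direction, are shown 5′ to 3′ on the strand of the gene, from RefSeq, GRCm38.p6. Capitals mark a match to the TATA box letters TATAAA, to AGGTCA, a core of nuclear receptor sites, or to GTTAAT, a core of HNF1 sites, on either strand, the kinds of sites that liver promoters are known for; these motifs do not overlap each other here.
Apoa1, chr9:46228490-46228629, plus strand: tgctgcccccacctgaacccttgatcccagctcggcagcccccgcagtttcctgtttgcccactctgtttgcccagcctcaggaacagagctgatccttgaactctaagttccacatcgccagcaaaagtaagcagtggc
Apoa4, chr9:46240704-46240843, plus strand: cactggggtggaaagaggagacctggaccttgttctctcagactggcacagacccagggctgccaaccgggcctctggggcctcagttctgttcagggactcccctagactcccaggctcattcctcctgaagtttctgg
Apoc2, chr7:19677942-19678081, minus strand: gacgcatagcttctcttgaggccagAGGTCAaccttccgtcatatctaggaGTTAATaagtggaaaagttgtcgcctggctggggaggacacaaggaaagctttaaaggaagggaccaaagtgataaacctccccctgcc
Apoa5, chr9:46268468-46268607, plus strand: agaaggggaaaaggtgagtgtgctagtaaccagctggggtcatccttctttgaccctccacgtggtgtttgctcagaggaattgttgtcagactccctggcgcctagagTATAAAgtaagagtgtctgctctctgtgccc

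In the 250 bases before the start, Apoc2 held AGGTCA 115 and GTTAAT 89 bases upstream, and Apoa5 held TATAAA 31 bases upstream. Apoa1 and Apoa4, which were both higher in tumors, held none of the 3, and neither did Apoe. Of the others, Apoa2 held TATAAA 212 bases and Apob 60 bases upstream, and Apoh held AGGTCA on the opposite strand 215 bases upstream. Sequences were at hand for 8 of the 10 members, and not for Apoc1 and Apoc3. Among the 250-base windows of 27025 genes, 13% held TATAAA, 13.8% AGGTCA and 6.52% GTTAAT, so each letter string is common, and a match is no evidence of binding.

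In livers, Apoe was at the highest level, 10023 ± 761 TPM (SD, n = 6), followed by Apoa2 at 9231 ± 2145 TPM and Apoa1 at 7536 ± 1499 TPM, and the ranges of each of these neighbors overlapped. Apoc1, at 4320 ± 330 TPM, and Apoc3, at 3424 ± 645 TPM, formed a second level below every value of Apoa1, and overlapped each other. Apoh, at 989 ± 173 TPM, came next, below every value of Apoc3 and above every value of Apoa5. The lowest 4 were Apoa5 at 555 ± 146, Apoa4 at 510 ± 326, Apoc2 at 483 ± 217 and Apob at 389 ± 118 TPM, whose ranges overlapped, and the highest livers for Apoa4 and Apoc2 reached into the range of Apoh. In tumors the order differed: Apoa1 came first, at 13174 ± 4243 TPM (SD, n = 12), Apoa4 moved from the eighth place to the fourth, at 4307 ± 2178 TPM, and Apoc2 from the ninth to the seventh, at 2538 ± 1331 TPM. Apoa5 came last, at 225 ± 127 TPM, just below Apob at 277 ± 128 TPM, and, with tumor 2 included, each neighbor in this order overlapped the next.

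**Figure D1:**
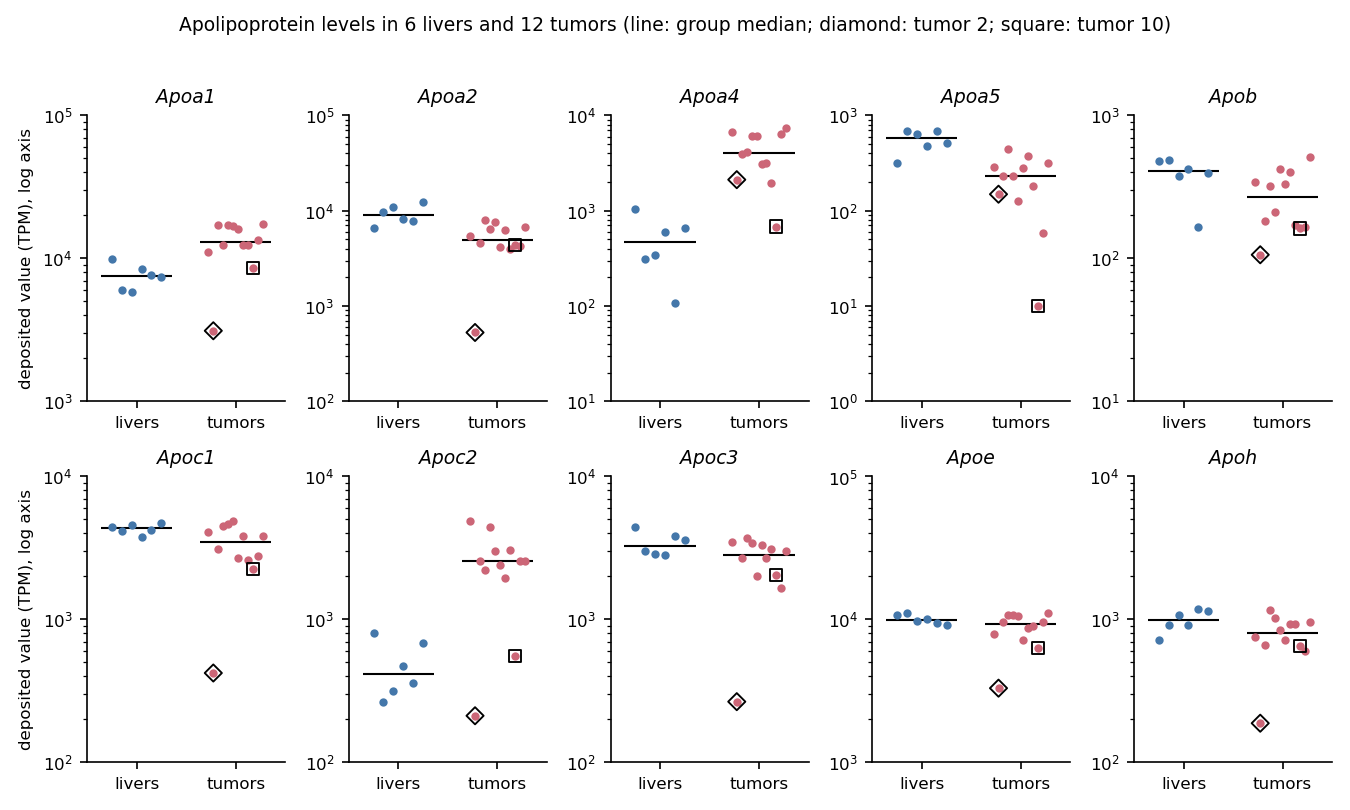
Deposited TPM (log axes) of each apolipoprotein in 6 livers (blue) and 12 tumors (red), 1 point per sample, with lines at the group medians; a diamond marks tumor 2 and a square tumor 10. Apoa4 and Apoc2 are above every liver in 11 and 10 tumors, Apoa5 is below every liver in 10, and tumor 2 is the lowest tumor in 8 of the 10 panels.

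Tumors and livers were compared to ask which of these secretory genes differ between the cancer and the non-tumoral liver of the same genotype. Of the 10 members, 4 passed an adjusted p of 0.05 in limma, against 19.2% of all 11452 genes tested. Apoa4, Apoc2 and Apoa1 were higher in tumors, against 9.72% of all genes, and Apoa2 was lower, against 9.44%. The median log2 fold change of the 10 was -0.30, beside -0.068 over all genes tested. With scaled values no member had every tumor above every liver, which 2.28% of all genes did, and none had every tumor below, which 1.01% did. All-gene calls were split almost evenly, with 50.7% of them higher in tumors, but 62.3% were higher when samples were instead brought to a fixed total without Siglece.

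Apoa4, a lipid-binding protein of HDL and of triglyceride-rich particles that hepatocytes induce when they load with fat, showed the largest difference among the members. Its level ranged from 108 to 1031 TPM in livers, with a median of 474.5, and from 683 to 7443 TPM in tumors, with a median of 4049. All tumors except tumor 10 were above the highest liver. On the log2 scale of scaled values plus 1, Apoa4 was higher in tumors by 3.33 (SE 0.49), about 10.1-fold, with an adjusted p of 5.8e-05 in limma and an exact two-sided permutation p of 0.00011 over 18564 arrangements. Within E19 samples the difference was 3.52 and within E20 samples 3.56. By its log2 fold change it took place 34 among all 11452 genes. Because the intestine also makes Apoa4, 4 markers of intestinal epithelium were read beside it. Their sum was 11 to 73 TPM in livers and 4 to 122 TPM in tumors, and none of the 2 tested was called in limma. Of these 2, Fabp2 was at 8 to 61 TPM in livers and 2 to 122 TPM in tumors, with a tumor median of 64.5. Its log2 difference was 0.78 (adjusted p 0.28), and that of Lgals4 was -0.72 (adjusted p 0.35). Cdx2, which defines that epithelium, was at 0 in every sample. Vil1, at 0 in every liver, reached 28 TPM in tumors. The part of Vil1 and Fabp2 in the difference of Apoa4 was not tested.

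Apoc2, the cofactor that lipoprotein lipase needs to hydrolyze triglyceride, was measured at 266 to 807 TPM in livers, with a median of 414, and at 212 to 4880 TPM in tumors, with a median of 2559. In TPM, tumor 2 was below and tumor 10 within the range of the livers, and the other 10 tumors were above it. With scaled values, only tumor 10 overlapped the livers. The log2 difference was 2.36 (SE 0.35), about 5.14-fold, with an adjusted p of 7.5e-05 in limma and an exact permutation p of 0.00016. It was 2.37 within E19 and 2.33 within E20 samples. Apoc4, its close neighbor, went the other way, from 1061 to 2044 TPM in livers to 64 to 940 TPM in tumors, with a log2 difference of -1.07 and an adjusted p of 0.000945 in limma.

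Apoa1, the main protein of HDL, was already abundant in livers, at 5865 to 9830 TPM with a median of 7537, and reached 3117 to 17517 TPM in tumors, with a median of 13005. Tumor 2 was below every liver in TPM, tumor 10 lay among the livers at 8622 TPM, and the other 10 tumors were above them all. The log2 difference was 0.91 (SE 0.24), about 1.88-fold, with an adjusted p of 0.0116 in limma and an exact permutation p of 0.00086. It was 0.69 within E19 and 0.98 within E20 samples, with adjusted p of 0.22 and 0.11 in these smaller sets. The call was also lost without scaling, where the difference was 0.72 with an adjusted p of 0.23, and without the filter on low values, where the adjusted p was 0.13.

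Apoa2, the second protein of HDL, moved opposite to Apoa1. Livers were at 6558 to 12271 TPM, with a median of 8944.5, and tumors at 528 to 7983 TPM, with a median of 4978. In TPM 9 tumors, tumor 2 the lowest among them, were below every liver, and in scaled values 6 were. The log2 difference was -0.82 (SE 0.24), about 0.568-fold, with an adjusted p of 0.021 in limma and an exact permutation p of 0.0018. It was -0.75 within E19 and -0.87 within E20 samples. The adjusted p in these smaller sets was 0.14 and 0.24. In all the call was lost in 10 of 35 alternative settings, in which the difference was -0.75 to -1.01: among them on leaving out liver 2, 3 or 6, with adjusted p of 0.062, 0.057 and 0.061, without scaling, with an adjusted p of 0.15, on scaling to the hepatocyte markers, with 0.060, and with no filter on low values, with 0.11.

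Apoa5, which promotes triglyceride hydrolysis at lipoprotein lipase, was at 320 to 692 TPM in livers, with a median of 581.5, and at 10 to 445 TPM in tumors, with a median of 232.5. In TPM 10 tumors were below every liver and in scaled values 7 were, tumor 10 being by far the lowest. The log2 difference was -1.48 (SE 0.61, 95% interval -2.74 to -0.21), and its adjusted p of 0.0969 in limma did not pass, while the exact permutation p of this gene alone was 0.034. Apoa5 did pass in limma without scaling, at -1.67 with an adjusted p of 0.043, and with scaling to the hepatocyte markers, at -1.50 with 0.036. With sample quality weights the difference was -1.49 and the adjusted p 0.0093. Without tumor 2 the adjusted p was 0.043 and the difference -1.63. Without tumor 10 the difference was -1.09 and the adjusted p 0.051.

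The remaining 5 members did not pass the test, and for none of them did the interval of the difference reach 1 in size on the log2 scale. Apoc1, which inhibits the uptake and hydrolysis of particles, was at 3802 to 4736 TPM in livers, with a median of 4337.5, and at 422 to 4908 TPM in tumors, with a median of 3479.5. In TPM 6 tumors were below every liver and 1 was above, and in scaled values 7 were below and none above. Its log2 difference was -0.38 (95% interval -0.81 to 0.053, limma adjusted p 0.225, exact permutation p of this gene alone 0.038). Apoc3, an inhibitor of lipoprotein lipase, was at 2814 to 4435 TPM in livers, with a median of 3286.5, and at 266 to 3733 TPM in tumors, with a median of 2839.5. Here too 6 tumors were below every liver in TPM, and 9 in scaled values. Its log2 difference was -0.39 (95% interval -0.85 to 0.074, limma adjusted p 0.25, exact permutation p of this gene alone 0.066).

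Apob was at 166 to 490 TPM in livers, with a median of 409, and at 106 to 512 TPM in tumors, with a median of 267. Liver 5, at 166 TPM, was the only liver under 378 TPM and lay among the low tumors, and the groups overlapped. The log2 difference was -0.36 (95% interval -0.96 to 0.23, limma adjusted p 0.426). Apoe, the ligand through which remnants are taken up, was at 9111 to 11100 TPM in livers, with a median of 9891, and at 3306 to 11096 TPM in tumors, with a median of 9270. In TPM 6 tumors were below every liver and none was above, while in scaled values 4 were below and 3 above, and the log2 difference was -0.067 (95% interval -0.57 to 0.43, limma adjusted p 0.886). Of 10 markers of macrophages, another source of Apoe, 6 were tested and 1 was lower in tumors, and their sum was 61 to 352 TPM in livers and 7 to 149 TPM in tumors.

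Apoh, also called beta-2-glycoprotein I, a plasma protein that binds phospholipid, was at 717 to 1178 TPM in livers, with a median of 991.5, and at 188 to 1172 TPM in tumors, with a median of 800. Only 4 tumors left the range of the livers in TPM and none did in scaled values, and the log2 difference was -0.23 (95% interval -0.64 to 0.19, limma adjusted p 0.482).

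**Figure D2:**
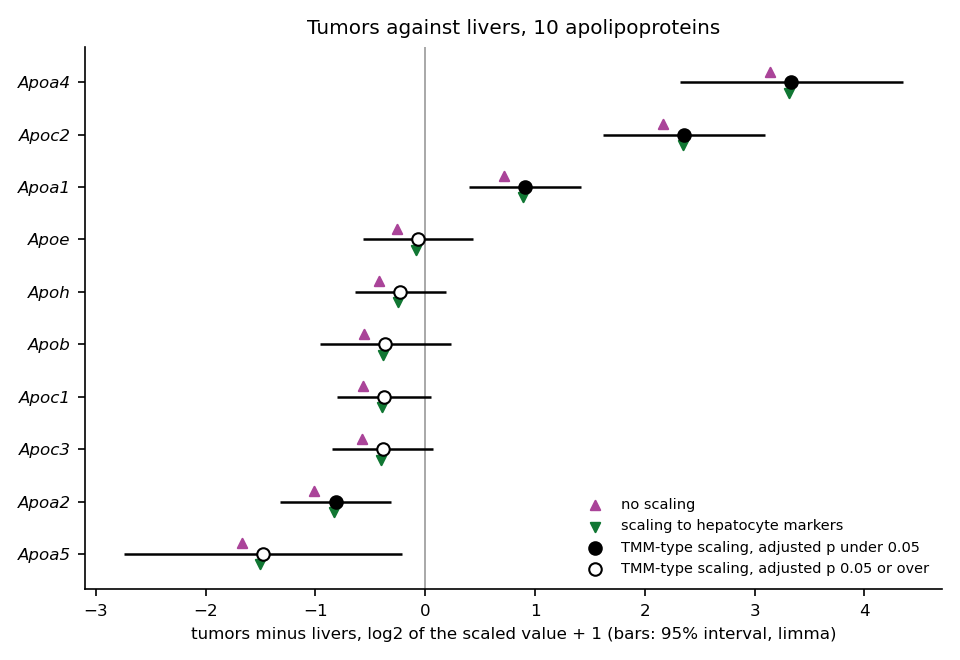
Log2 difference of tumors minus livers for each apolipoprotein with its 95% interval (limma, scaled values plus 1; 12 tumors, 6 livers), filled where the adjusted p is under 0.05, with the values without scaling and with scaling to 15 hepatocyte markers as triangles. Apoa4, Apoc2 and Apoa1 lie right of 0 and Apoa2 and Apoa5 left of 0 under all 3 scalings. Apoa1 passes the test with the TMM-type factor and with hepatocyte markers, and Apoa2 with the TMM-type factor alone. Apoa5 passes without scaling and with hepatocyte markers.

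A ratio of 2 members within a sample depends neither on the scaling nor on Siglece, and the ratios are given as a description, without a test. Of the 45 pairs of members, 12 had every tumor on 1 side of every liver, and each of these 12 pairs held Apoa1, Apoa4 or Apoc2. Those are the members called higher in the same samples, so this count is no separate result. How often pairs of all genes are apart was not counted. Apoa1 over Apoa2, the protein scaffold of HDL, was 0.537 to 1.5 in livers and 1.57 to 5.90 in tumors, with medians of 0.798 and 2.62. Apoa4 over Apoc3, neighbors on chromosome 9, was 0.028 to 0.232 in livers and 0.333 to 7.96 in tumors, so transcripts of Apoc3 outnumbered those of Apoa4 in every liver. Apoa5 over Apoa4, at 0.31 to 6.41 in livers, was at most 0.12 in tumors. On chromosome 7, Apoc2 over Apoc1 was 0.064 to 0.183 in livers and 0.247 to 1.2 in tumors, and Apoc2 over Apoc3, the activator and an inhibitor of lipoprotein lipase, was 0.089 to 0.19 in livers and 0.271 to 1.53 in tumors. Apob over Apoe overlapped, at 0.018 to 0.045 in livers and 0.017 to 0.046 in tumors. These ratios show that members of each cluster did not keep their proportions.

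**Figure D3:**
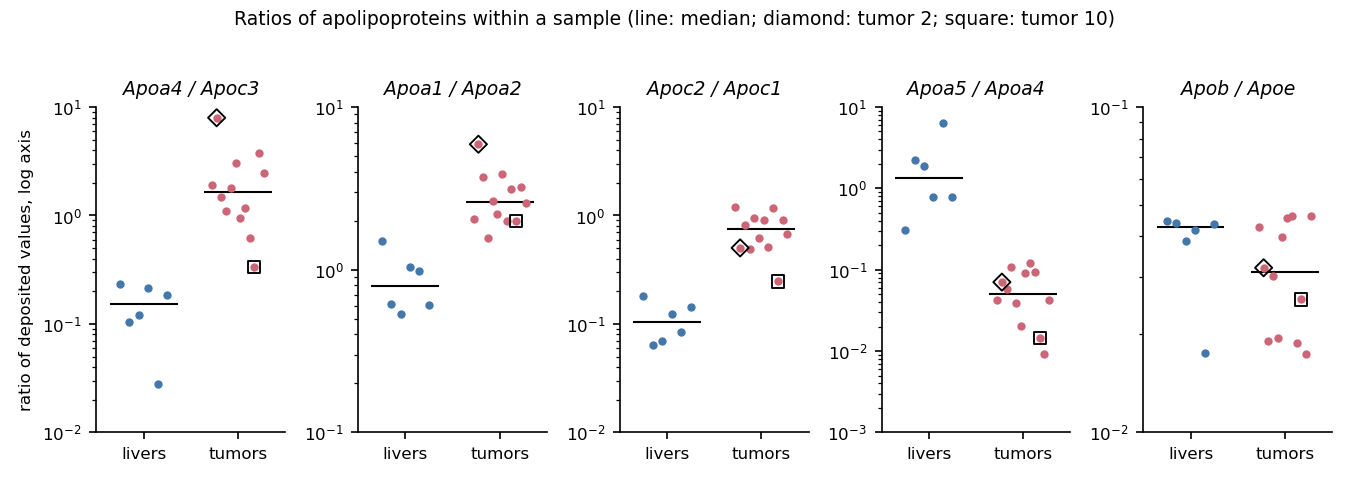
Ratios of deposited TPM within each sample (log axes) for 6 livers (blue) and 12 tumors (red), with lines at the medians, a diamond for tumor 2 and a square for tumor 10. The groups are apart in the first 4 panels, including tumors 2 and 10, and overlap for Apob over Apoe.

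Together the 10 members made up 35386 to 40569 TPM in livers and 10411 to 54385 TPM in tumors, so that their sum overlapped between the groups. As a share of the total without Siglece, they made up 5.65 to 6.03% in livers and 4.46 to 10.1% in tumors, above every liver in 10 tumors and below every liver in 1. The share of a member in the sum was apart between the groups in all samples for Apoa4 and Apoc1 alone. Apoa4 made up 0.305 to 2.62% of the sum in livers and 2.66 to 20.3% in tumors, a share above every liver in 12 of 12 tumors. Apoc1 made up 10.5 to 12.4% in livers and 4.05 to 9.46% in tumors, below every liver in 12 of 12. Apoa1 took 15.97 to 25.01% in livers and 24.6 to 39.9% in tumors, and Apoa2 16.7 to 30.2% in livers and 5.07 to 16.9% in tumors. Since shares add up to a whole, a rise of one lowers the others.

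The tumors differed among themselves, and this was asked of the members too. The TPM of Apoa5 in the highest tumor was 44.5 times that in the lowest, tumor 10, and 7.54 times without that tumor, beside 2.16 times in livers. For Apoc2 these values were 23.0 in tumors, 8.78 without tumor 2, and 3.03 in livers. Apoa4 varied 10.9 times among tumors and 3.82 times without tumor 10, and 9.55 times among livers and 3.34 times without liver 5. Leaving out tumor 2, Apoa1, Apoa2, Apoc1, Apoc3, Apoe and Apoh varied 1.75 to 2.24 times and Apob 3.16 times among tumors. With scaled values, deviations from the group median were larger in tumors for 9 of the 10 members, all except Apoh. The share of all genes with larger deviations in tumors was not counted, so this number shows nothing particular to the members. In an exact permutation test adjusted over all genes, 0 of the 10 passed, as did 0.0% of all genes. Of all genes, 479 had an unadjusted p under 0.05 in that test, none of them a member. Livers and tumors were thus not shown to differ in spread for any member. Leaving out liver 5, Apob had an unadjusted exact p of 0.013 and an adjusted p of 0.94.

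**Figure D4:**
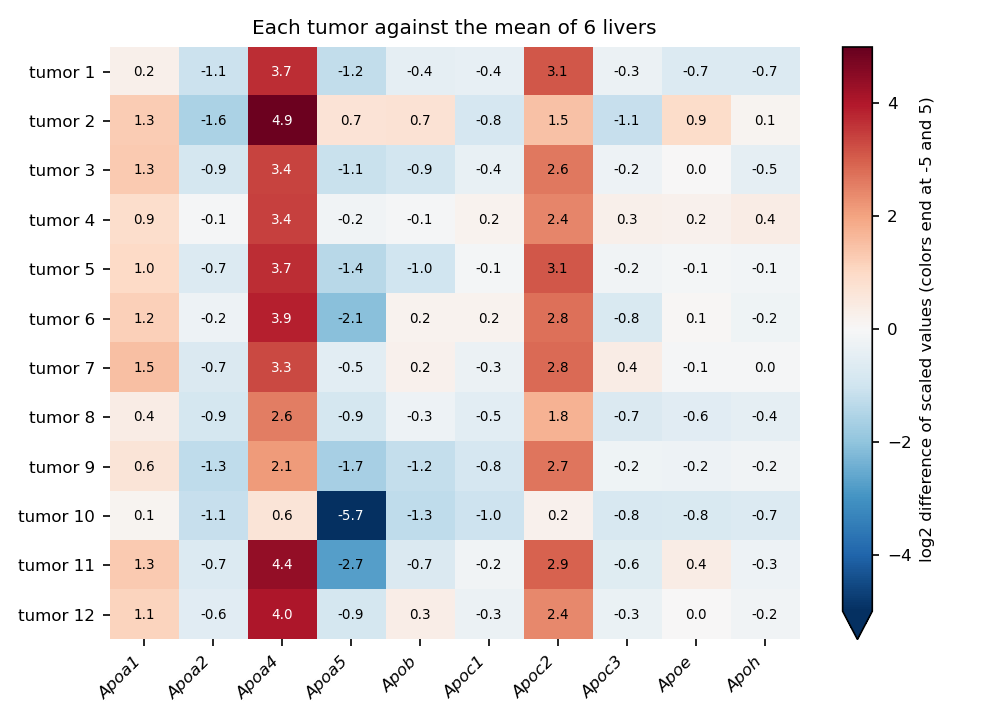
Log2 difference of scaled values between each of 12 tumors (lines) and the mean of 6 livers for each of 10 apolipoproteins (columns), red for higher and blue for lower. The Apoa4 and Apoc2 columns are red in all tumors and palest in tumor 10, where Apoa5 is at -5.7, and Apoa2 is below 0 in all 12.

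Tumor 10 stood apart. In scaled values it was the lowest tumor for 7 members, Apoa1, Apoa4, Apoa5, Apob, Apoc1, Apoc2 and Apoe, and the highest for none. Its Apoa5 was at 10 TPM, -5.68 on the log2 scale from the liver mean, while its Apoa4 and Apoc2, at 683 and 556 TPM, were within the range of the livers. The same tumor was the lowest for 10 of the 15 hepatocyte markers and highest for none, with Cps1 at 3 TPM, Ass1 at 18 TPM and Alb at 22923 TPM. Cps1 was at 883 to 2447 TPM in livers and 47 to 1028 TPM in the other tumors. Ass1 was at 1340 to 2195 TPM in livers and 65 to 1130 TPM in the other tumors, so it was below every liver in every tumor. Tumor 10 also held the highest summed levels of macrophage and fibroblast markers among the tumors, 149 and 202 TPM, beside 61 to 352 and 80 to 106 TPM in livers. The part of these values in its low apolipoproteins was not tested. Without tumor 10, Apoa4 differed by 3.58 and Apoc2 by 2.55 on the log2 scale.

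Tumor 2 was the lowest tumor for 8 members in TPM, but after scaling it was the highest for Apoa4, Apoa5, Apob and Apoe and the lowest for Apoa2 and Apoc3. Its values thus depend on the scaling more than those of any other sample. Its ratio of Apoa1 over Apoa2, 5.90, and of Apoa4 over Apoc3, 7.96, were the highest of all samples, and neither rests on scaling. In scaled values tumor 4 was the highest for Apoa2 and Apoh, and tumor 7 for Apoa1 and Apoc3. Tumors 11 and 12, from the same mouse, differed for Apoa5, at 59 and 318 TPM, and for Apob, at 167 and 512 TPM, by more than the median of other pairs of tumors, and by less for the other 8 members. Their Apoa4 was 6333 and 7443 TPM and their Apoc2 2544 and 2574 TPM.

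Whether members varied together was examined across the tumors of 11 mice, with tumors 11 and 12 averaged. Of 45 pairs, 42 had a positive Pearson r of log2 scaled values and 11 an unadjusted permutation p under 0.05, but only Apoa2 and Apoc1 passed after adjustment over the 45. Their r was 0.91 (permutation p 0.00018, adjusted p 0.0081) and Spearman's rho 0.945 (permutation p 4e-05, adjusted p 0.0018). Leaving out tumors 2 and 4, the farthest from the median of Apoa2, r was 0.90, without tumor 2 alone it was 0.91, and within the 7 tumors tagged E19 it was 0.92 (rho 0.929). No r was computed for the 5 tumors tagged E20, since 6 samples were required for a correlation. The genes of this pair lie on different chromosomes. Apoa1 and Apoe, with r 0.78 and rho 0.70, had an adjusted p of 0.0808 and 0.233, and Apoe and Apoh, with r 0.77 and rho 0.69, had 0.0808 and 0.233.

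No pair of neighbors in a cluster passed after adjustment. Apoa1 and Apoa4 had an r of 0.67 (permutation p 0.0187, adjusted p 0.12) and a rho of 0.42 (permutation p 0.204, adjusted p 0.502), and r was 0.66 without tumors 1 and 10. Apoa4 and Apoa5 had an r of 0.77 (permutation p 0.0168, adjusted p 0.12), but a rho of only 0.18, and without tumors 2 and 10 r was -0.23, so that it rested on those samples. Apoc1 and Apoc2 had an r of 0.66 (permutation p 0.0242, adjusted p 0.121) and a rho of 0.51, with r 0.46 without tumors 6 and 10. Apoa1 and Apoc3 had an r of 0.23 (permutation p 0.498, adjusted p 0.646). The number of pairs that passed depended on scaling: it was 16 without scaling and 1 with scaling to the hepatocyte markers, where 28 of the 45 pairs had a positive r. Without tumor 2, 3 pairs passed, with Apoa1 and Apoe at r 0.85 and an adjusted p of 0.042.

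The genes most like each member were sought among 1770 genes of high mean level across the 12 tumors, as a description over 12 points of shared scaling, with no test. For Apoa5 they were Ces3b (r 0.98, rho 0.97), Hsd11b1 (r 0.96) and Slc35d1 (r 0.95). For Apoc2 they were Serpina12 (r 0.91), Cyp2d26 and Sfxn1, and Serpina12 was itself higher in tumors, by 3.42 on the log2 scale (limma adjusted p 0.00069). Apoa2 was most like Nucks1 (r 0.93), Ndufa6 and Ndufb7, and Apoc1 most like Cfhr2 (r 0.90), Nucks1 and Cpt1a. Apoa1 was closest to F10 (r 0.88), Hpx and Itih4, Apoe to Ptprz1 (r 0.92), Itih3 and Fga, and Apoh to Plbd2 (r 0.90), Crp and Inhca. The closest to Apoa4 were Nsmf (r 0.90), Acacb and Sptan1, to Apob Zfp36 (r 0.91), Tns1 and Smarca2, and to Apoc3 Iah1 (r 0.92), Tmbim6 and 1600014C10Rik.

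The tags and ages of the samples were examined for the members. A term for a tumor-liver difference that differs between tags passed for 0 of the 10 members, as for 0.0% of all genes tested in limma, where 325 genes had an unadjusted p under 0.05, none of them a member. The widest such difference was that of Apoa5, -2.14 within E19 and -0.75 within E20 samples, each from its own fit, and the term itself was 1.42 in the fit of all samples (SE 1.27, limma adjusted p 0.959). With the tag as a covariate, Apoa4 differed between tumors and livers by 3.53, Apoc2 by 2.33, Apoa1 by 0.85 and Apoa2 by -0.83, and with age as a covariate by 3.37, 2.41, 0.93 and -0.81, all 4 with adjusted p under 0.05 in limma.

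Genes that act with these proteins were described from 7 lists. Of 93 different genes on them, 88 could be tested, and 10 were higher and 20 lower in tumors in limma, beside 9.72% and 9.44% of all genes. Among 16 further apolipoproteins and proteins carried on the same particles, 14 were tested, 2 were higher, 3 lower and 9 did not pass, with a median log2 fold change of -0.37. Clu, also called apolipoprotein J, was at 710 to 930 TPM in livers and 453 to 3130 TPM in tumors and was higher by 1.21 on the log2 scale (adjusted p 0.00258). Saa4, a serum amyloid of HDL, was lower by 1.36 (49 to 285 TPM in livers, 5 to 78 TPM in tumors, adjusted p 0.00302), Apol7a by 1.15 and Apoc4 by 1.07. Apod was at 0 in every sample.

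In the assembly and secretion of VLDL, 19 genes were tested, of which 1 was higher, 4 were lower and 14 did not pass, with a median of 0.034. Plin2, which coats lipid droplets, was higher by 0.84 (adjusted p 0.0203 in limma). The 4 lower genes were Dgat1 and Dgat2, the enzymes of the last step of triglyceride synthesis, at -0.80 and -0.66, and the carboxylesterases Ces1d and Ces1g, at -1.36 and -1.46. The carboxylesterase genes, like those of the Apol7 family, have close copies between which reads may be divided, so their values are uncertain. Ces1d was at 377 to 481 TPM in 5 livers and at 86 TPM in liver 1. Of the 4 genes that edit Apob mRNA, only the cofactor Rbm47 passed, at -0.66 (adjusted p 0.0108).

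For the formation and remodeling of HDL, 11 genes were tested, 3 were higher, 4 lower and 4 did not pass, with a median of 0.030. Pltp, which transfers phospholipid between particles, was higher by 1.65, from 10 to 27 TPM in livers to 13 to 126 TPM in tumors. Pon1, an esterase carried on HDL, was lower by 2.06, from 164 to 330 TPM in livers to 9 to 203 TPM in tumors. The lipases Lipc and Lipg were lower by 1.48 and 0.85, and Lipg was at 1 to 6 TPM in livers and 0 to 3 TPM in tumors. The adjusted p of Pltp, Pon1, Lipc and Lipg in limma were 0.0203, 0.0023, 0.00453 and 0.0299.

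Of the genes of lipoprotein uptake, 10 of 12 were tested, 2 were higher, 1 was lower and 7 did not pass, with a median of 0.031. Sort1, a sorting receptor for Apob, was higher by 1.13 (2 to 5 TPM in livers, 1 to 22 TPM in tumors). Lrp1, a receptor for particles that carry Apoe, was lower, at -0.997. Of 8 genes of triglyceride lipolysis, 3 were higher and none lower, with a median of 0.31. Lpl, the lipase that Apoc2 activates, was at 4 to 7 TPM in 5 livers, 80 TPM in liver 1 and 20 to 123 TPM in tumors, a log2 difference of 2.88 (adjusted p 0.00015 in limma). Gpihbp1, which anchors this lipase to capillaries, was higher by 0.82 and Cd36, a fatty acid carrier, by 0.97. Of 7 endothelial markers, 2 were higher, Pecam1 by 1.15 and Cdh5 by 0.93, and 0 were lower. Among those that did not pass, Kdr and Lyve1 were at 0.50 and 0.46, and Clec4g, Eng and Stab2 at -1.02, -0.51 and -0.43. The sum of the 7 was 64 to 109 TPM in livers and 31 to 136 TPM in tumors, with medians of 89 and 84. The part of these markers in the differences of Lpl, Gpihbp1 and Cd36 was not tested.

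Among 25 transcription factors known to act on apolipoprotein genes, 24 were tested, 0 were higher and 7 were lower, with a median of -0.38, beside -0.068 over all genes. Mlxipl, which responds to glucose, was lower by 1.46 (47 to 188 TPM in livers, 12 to 133 TPM in tumors, adjusted p 0.0368 in limma). Nr1d1, a repressor of the circadian clock, was lower by 1.34, from 1 to 25 TPM in livers to 0 to 4 TPM in tumors. The bile acid receptor Nr1h4 and its target Nr0b2 were lower by 0.78 and 0.81. Hnf4a, on which the hepatocyte program depends, was at 26 to 60 TPM in livers and 9 to 74 TPM in tumors, with a log2 difference of -0.11 and an adjusted p of 0.719.

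**Figure D5:**
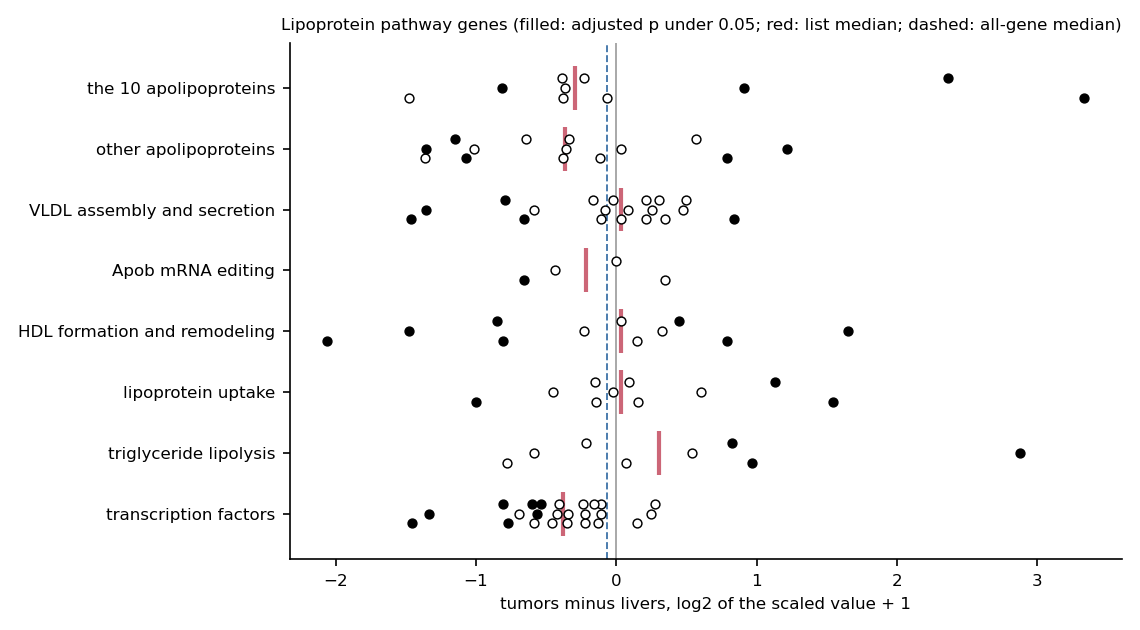
Log2 difference of tumors minus livers (scaled values plus 1) for the 10 apolipoproteins and the tested genes of 7 lists, 1 point per gene, filled where the limma adjusted p is under 0.05, with a red bar at each list's median and a dashed line at the median of all genes, -0.068. Apoa4 and Apoc2 are at 3.33 and 2.36, Lpl is at 2.88, and no transcription factor is filled on the right.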

How the data were processed

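Bulk RNA-seq of 6 livers and 12 tumors was used, grouped by the sample titles. Ages, and the match of table columns to samples, come from the study's supplementary table of mice. For tumors 3 and 10 the mouse number in the labels differs from that table, so their columns were assigned by tumor number plus tag, which tumor 10 shares with tumor 5, whose own column the mouse number gives. Per the methods, the authors sequenced poly-A RNA, mapped the reads to GRCm38, used Salmon for quantification and expressed genes as TPM; edgeR is also named in the submitters' processing notes, without a role. The deposited table holds whole numbers, entered here as a score and read as rounded TPM, while the study's data statement calls it raw counts. In 8 lines of the table an extra separator was corrected for.

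A TMM-type factor scaled each sample (no weights, 30% of M and 5% of A values trimmed). The filter required a scaled value of 1 or more in 6 or more samples. For all genes left, log2 of the scaled value plus 1 was fitted with limma-trend (limma 3.58.1, R 4.3.3) and Benjamini-Hochberg adjustment over 11452 genes (threshold 0.05). A log2 fold change on this scale understates that of low genes. Spread and single genes were tested by exact permutation over 18564 arrangements, for which the smallest two-sided p is 5.39e-05, and correlations with 100000 permutations (Python 3.11.15, numpy 2.4.6, scipy 1.17.1, pandas 2.3.3; figures with matplotlib 3.10.9). Nothing says that samples other than tumors 11 and 12 came from the same animal. The main fit and the exact permutations entered tumors 11 and 12 as 2 samples, and their p-values rest on variation between samples. With these 2 averaged, the same 4 members passed in limma, with adjusted p of 0.00012 for Apoa4, 0.00015 for Apoc2, 0.019 for Apoa1 and 0.025 for Apoa2. The fit was tested on simulated data before use.

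The members, gene lists, marker lists and tests were chosen with earlier results of these data known. Named genes are the 10 members, in each other list the up to 4 called genes with the largest log2 fold change and any gene at 0 throughout, and for each member the 3 genes with the highest r across tumors among those with a mean log2 scaled value of at least 5. Other genes were named after their values were seen, and 1 gene of the lists is counted but not reported here. Alternatives changed scaling, pseudocount (0.5 or 10), filter, covariates, block, weights and samples. The highest over the lowest value without single samples was added after seeing the data. Promoter sequences and positions are those of RefSeq, GRCm38.p6.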

Additional observations from a re-analysis of the deposited data

Results flagged for a closer look

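For 34 results, the lowest or highest of the 6 livers was compared with its nearest neighbor, as a share of the range of all livers. In 5 of the 34 this share passed Dixon's critical value of 0.625, where chance alone would flag 1 in 20, or 1.7 results. Among the members this was the case for Apob, with a share of 0.654: liver 5 was at 166 TPM and the next liver at 378 TPM. Liver 1 stood apart for 3 genes of the pathway. It was the highest liver for Lpl, at 80 TPM beside 7 TPM in the next (share 0.961) and for Apoc4, at 2044 TPM beside 1419 TPM (share 0.636), and the lowest for Ces1d, at 86 TPM beside 377 TPM (share 0.737). Liver 1 was also the highest liver for Apoa4, Apoc2, Apoa1 and Apoc3 in TPM, at 1031, 807, 9830 and 4435 TPM, without passing that value. It was the lowest liver for Apoa2, Apoa5 and Apoh, at 6558, 320 and 717 TPM. In scaled values its Apoa1 and Apoc3, at 7084 and 3196, were below those of liver 5, at 8418 and 4251. Liver 4 was the highest for Sort1, at 5 TPM beside 3 TPM (share 0.667), a gap of few units in whole-number values. The cause of these gaps was not tested.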

How the results depend on the processing

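Across 35 alternative settings, Apoa4 and Apoc2 remained higher in tumors with an adjusted p under 0.05 in every one, Apoa1 in 31 and Apoa2 remained lower in 25, while Apoa5 passed in 4. Apoa2 had an adjusted p of 0.11 with the replicate block and 0.13 in the same 12 samples without it. The number of members called was 4 in the main fit. It was 3 without scaling, with the replicate block and in the same 12 samples without it, and 5 with sample quality weights. It was 2 with no filter on low values, with E19 samples alone and with E20 samples alone. Leaving out 1 sample each, it was 3 to 5. Without scaling the 3 were Apoa4, Apoc2 and Apoa5. With scaling to hepatocyte markers the number was 4, but Apoa5 was called and Apoa2 was not. Apoe, which was never called, changed sign: its log2 difference was -0.067, but 0.023 with a fixed total without Siglece, 0.080 with the replicate block and in the same 12 samples with no replicate block, 0.023 in E20 samples alone and 0.0068 without liver 2; leaving out 1 sample each, it was -0.12 to 0.0068. Without scaling, 12 genes of the other lists were called instead of 30, and 16 pairs of members correlated instead of 1; leaving out 1 sample each, 20 to 36 genes and 1 to 3 pairs. Pairs numbered 3 without tumor 1, 2 or 4 and 2 without tumor 7. Over all genes, 2194 were called, 1341 without scaling, 1222 with scaling to hepatocyte markers, 4508 with sample weights, 1344 in E19 and 398 in E20 samples alone, and the median log2 difference of all genes moved from -0.068 to -0.18 without scaling. The cause of these changes was not tested, and the E19 and E20 sets also hold fewer samples. Livers and tumors share replicate numbers, but deviations of same-numbered samples correlated at -0.11 to 0.42 over 6 pairs, so the numbers were not read as pairs; with the replicate block over samples 1 to 6, 1363 genes were called, and 1222 in the same samples without it, with Apoa1, Apoa4 and Apoc2 called in both. TPM keep no read depth, so no precision can be given for low values.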
